A study of Homo sapiens with 12 samples.

Results

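LIN28A, LIN28B, HMGA2, DICER1 and DIS3L2, the genes of the LIN28 and let-7 axis, are 5 of the 43557 genes in the deposited count table. They were taken by symbol from a list drawn up with their values in these libraries known, so their levels and differences are descriptions and carry no test. The study set out to lower FTO, an RNA demethylase, in 2 human bladder cancer cell lines and sequenced poly(A)-selected RNA from 12 libraries, 3 in each of 4 groups. The groups are T24 shFTO, T24 shNC, RT4 shFTO and RT4 shNC. T24 and RT4 are single established lines, labelled as bladder cancer cells. The shFTO groups are labelled as FTO knockdown and the shNC groups are the controls of the same line. The labels give no hairpin sequence or vector, and no time after knockdown. They carry a batch number from 1 to 3 that equals the replicate number.

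The let-7 microRNAs are small RNAs that guide Argonaute proteins to messenger RNAs through their seed and lower the output of those messages. They rise as cells differentiate. LIN28A and LIN28B bind the loop of the let-7 precursor and block its maturation, and in doing so they recruit uridylyltransferases whose tail marks the precursor for the exonuclease DIS3L2. DICER1 cuts the precursors that escape, and HMGA2, a chromatin protein of embryonic tissue and of many tumours, is a classical let-7 target. LIN28A and LIN28B are let-7 targets too.

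The mature let-7 sequences are shown because the search for matches in transcripts here rests on their shared seed. Bases 2 to 8, counted from the 5′ end, are in capitals. The sequences are from RefSeq (GRCh38.p14).
let-7a-5p: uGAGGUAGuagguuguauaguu
let-7b-5p: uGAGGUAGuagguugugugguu
let-7c-5p: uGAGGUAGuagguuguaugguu
let-7g-5p: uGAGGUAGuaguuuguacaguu
let-7i-5p: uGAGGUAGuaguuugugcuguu
miR-98-5p: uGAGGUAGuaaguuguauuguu
All 9 mature 5p sequences of the family found in the table carried the seed GAGGUAG, as did 11 of all 2370 mature names. Poly(A) libraries do not measure these mature RNAs, and no small RNA libraries were analysed here.

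Precursors are shown because LIN28 proteins are known to bind a GGAG motif near the 3′ end of the precursor loop. GGAG is in capitals where it was found between the mature arms, on the strand of the hairpin. The let-7a-2 hairpin (chr11:122146522-122146593, minus strand) and the let-7i hairpin (chr12:62603686-62603769, plus strand) hold it, and the let-7b hairpin (chr22:46113686-46113768, plus strand) does not.
let-7a-2: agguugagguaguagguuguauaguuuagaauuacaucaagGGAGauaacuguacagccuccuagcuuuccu
let-7i: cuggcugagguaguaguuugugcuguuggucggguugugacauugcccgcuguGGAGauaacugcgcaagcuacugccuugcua
let-7b: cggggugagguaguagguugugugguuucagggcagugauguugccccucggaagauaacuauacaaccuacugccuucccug
Of the 11 hairpins of the family with both arms annotated, 8 held GGAG there, against 60 of 741 such human hairpins (8.1%). A match is a description of letters, not a binding site.

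Matches to the let-7 seed in the members are shown because LIN28B and HMGA2 hold more of them than most transcripts do. The search was for CTACCTC, the complement of the seed, on the transcript strand, and for CTACCTCA, which contains it and is called an 8mer. Capitals mark the match. The transcripts are the principal ones of GENCODE 29 (GRCh38).
LIN28B, chr6:105078813-105078834, plus strand: cccggttgcaaagtCTACCTCA
LIN28B, chr6:105081422-105081443, plus strand: tttacagcaaaaggCTACCTCA
HMGA2, chr12:65963299-65963320, plus strand: ccaacgttcgatttCTACCTCA
LIN28A, chr1:26427349-26427370, plus strand: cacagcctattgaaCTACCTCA
DICER1, chr14:95103640-95103661, minus strand: aaatgctaacaaatCTACCTCA
The 3′ UTR of LIN28B (4549 bases) held 4 matches, 2 of them 8mers, and that of HMGA2 (3003 bases) held 4 matches with 1 8mer. LIN28A (3264 bases) had 1 match. At least 1 match was present in 8.8% of 18816 3′ UTRs, and at least 4 in 12 of them (0.0638%). Among 3′ UTRs at least as long and cut to the same length, 4 or more matches were found in 0.227% for LIN28B and 0.0345% for HMGA2. DICER1 had no match in its 3′ UTR (4270 bases), and its coding sequence held 4, of which the one printed is a coding 8mer. As many were held by 15 of 18816 coding sequences (0.0797%), and by 0.6% of the 500 that are at least as long when cut to the same length. DIS3L2 had none in its 3′ UTR (567 bases) or its coding sequence.

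Libraries held 31291047 to 102798895 counts, and levels are CPM, counts scaled to library size after TMM normalisation. Genes other than the members were tested with edgeR (quasi-likelihood, Benjamini-Hochberg adjustment over 23070 genes) and called under an adjusted p of 0.05. These tests measure the spread between these libraries, because the labels do not say that replicates were separate cultures. FTO (chr16:53703963-54121941) averaged 25.5 CPM in T24 shFTO and 35.2 CPM in T24 shNC (log2 change -0.46, adjusted p = 1.93e-07). It averaged 68.9 CPM in the libraries labelled RT4 shFTO and 46.2 CPM in those labelled RT4 shNC (0.58, adjusted p = 4.19e-09). FTO was therefore higher where the RT4 label says it was knocked down. Every direction here, in T24 as in RT4, is a direction between labels. A gene said to rise or fall is higher or lower in shFTO than in shNC, and no effect of the knockdown is meant. Urothelial markers, 12 genes summed per library, ranged over 373 to 384 CPM in T24 shFTO, 1239 to 1312 in T24 shNC, 170 to 177 in RT4 shFTO and 19.9 to 23.0 in RT4 shNC. The sums do not give the direction of each gene. Of the 11 tested, 6 were called higher and 4 lower in T24 shFTO (median log2 change 0.76), beside 37.2% and 40.8% of all tested genes. In RT4 shFTO 3 were called higher and 3 lower (median 0.00), beside 38.6% and 40.0%. The uroplakins UPK1B and UPK3A were at 0 counts in all groups but T24 shFTO. In T24 shFTO the urothelial markers KRT20 and KRT5 were at 0 counts, as they were in RT4 shNC. Hepatocyte markers (11 genes) summed to 24514 to 25564 CPM in T24 shFTO and to 5.95 to 7.15 in T24 shNC. In RT4 they summed to 34.5 to 38.3 CPM in shFTO and to 7.18 to 8.77 in shNC. Fibroblast markers (9 genes) summed to 7503 to 7837 CPM in RT4 shFTO and to 1.35 to 1.81 in RT4 shNC. In T24 they summed to 24.6 to 27.1 CPM in shFTO and to 159 to 166 in shNC. The part of these marker differences in the results was not tested. Of all tested genes, 78.0% passed the test in T24 and 78.6% in RT4, so a call by itself sets no gene apart.

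LIN28B (chr6:104937026-105083332), the paralogue that blocks let-7 maturation in many tumours, was present in 2 groups and at 0 counts in the other two. T24 shFTO libraries held 5193, 3229 and 3845 counts, and each T24 shNC library held 0. That is 99.5 ± 1.8 CPM in T24 shFTO (SD, n = 3) and at least 3829-fold higher than T24 shNC, with 3 counts over the T24 shNC group as the limit. In RT4 the pattern between labels was the opposite. Libraries labelled RT4 shFTO each held 0 counts, and those labelled RT4 shNC held 4878, 12100 and 10284 counts, or 112 ± 1.58 CPM (SD, n = 3). The level was at least 4141-fold lower in the libraries labelled RT4 shFTO. T24 shFTO and RT4 shNC did not overlap, with RT4 shNC 1.13 times as high. The bounds cover counting error only. In bulk RNA, fewer cells that express a gene and less RNA per cell cannot be told apart.

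LIN28A (chr1:26410817-26429728), the paralogue best known from pluripotent cells, was rare everywhere. T24 shFTO libraries held 46, 11 and 42 counts and the T24 shNC libraries 0, so that the level was at least 29.6-fold higher in T24 shFTO. The libraries labelled RT4 shFTO held 3, 4 and 0 counts, against 7, 41 and 26 counts in those labelled RT4 shNC. In CPM that was 0.0645 ± 0.0582 in RT4 shFTO and 0.274 ± 0.107 in RT4 shNC (SD, n = 3 each), a log2 change of -2.15. The 2 RT4 groups did not overlap. T24 shFTO (0.77 ± 0.387 CPM, n = 3) overlapped RT4 shNC. Every group mean was under 1 CPM.

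HMGA2 (chr12:65824460-65966291), the let-7 target with 4 matches in its 3′ UTR, had the same order of directions. T24 shFTO libraries had 388, 378 and 394 CPM and T24 shNC libraries had 5.86, 4.14 and 4.63 CPM. The mean was 387 ± 8.27 CPM in T24 shFTO and 4.88 ± 0.89 CPM in T24 shNC (SD, n = 3 each), 79.3-fold higher in T24 shFTO. In the libraries labelled RT4 shFTO it stood at 157, 154 and 151 CPM, against 1592, 1742 and 1643 CPM in those labelled RT4 shNC. That is 10.8-fold lower in RT4 shFTO (log2 change -3.43), and the groups of neither line overlapped. Unlike LIN28B, HMGA2 was well above 0 in the groups that lacked LIN28B counts. From high to low the groups ran RT4 shNC, T24 shFTO, RT4 shFTO and T24 shNC, each step without overlap and with ratios of 4.29, 2.51 and 31.6.

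DICER1 (chr14:95086228-95158010), the ribonuclease that makes mature microRNAs, moved in the same directions by a smaller amount. T24 shFTO libraries had 137, 132 and 141 CPM and T24 shNC libraries had 96.3, 91.4 and 92.5 CPM, 1.46-fold higher in T24 shFTO (log2 change 0.55). Libraries labelled RT4 shFTO had 112, 117 and 115 CPM and those labelled RT4 shNC had 175, 171 and 169 CPM (log2 change -0.58). No groups overlapped, and their order was the same as for HMGA2, with ratios between neighbours of 1.26, 1.19 and 1.23. The log2 changes of the same-numbered pairs were 0.50, 0.53 and 0.61 in T24 and -0.64, -0.55 and -0.56 in RT4.

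DIS3L2 (chr2:231961713-232344350), the exonuclease that degrades uridylated let-7 precursors, differed least between the groups of a line. T24 shFTO libraries had 20.1, 21.7 and 20.7 CPM and T24 shNC libraries had 23.2, 22.4 and 23.3 CPM (log2 change -0.14). Libraries labelled RT4 shFTO had 25.5, 23.2 and 24.1 CPM, against 20.2, 22.6 and 24.6 CPM in those labelled RT4 shNC (log2 change 0.11). The RT4 value was -0.00 with upper-quartile scaling, 0.01 without the low-count filter and 0.03 without RT4 shNC replicate 1. The T24 groups did not overlap and the RT4 groups did. Taking all 5 members, the 2 groups of a line did not overlap for 5 of 5 in T24 and 4 of 5 in RT4, against 79.6% and 79.9% of all tested genes. In 4 of 5 the groups did not overlap in either line and stood in opposite directions, against 34.5% of all tested genes. The members were chosen with these values known, so nothing is read from these counts.

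**Figure D1:**
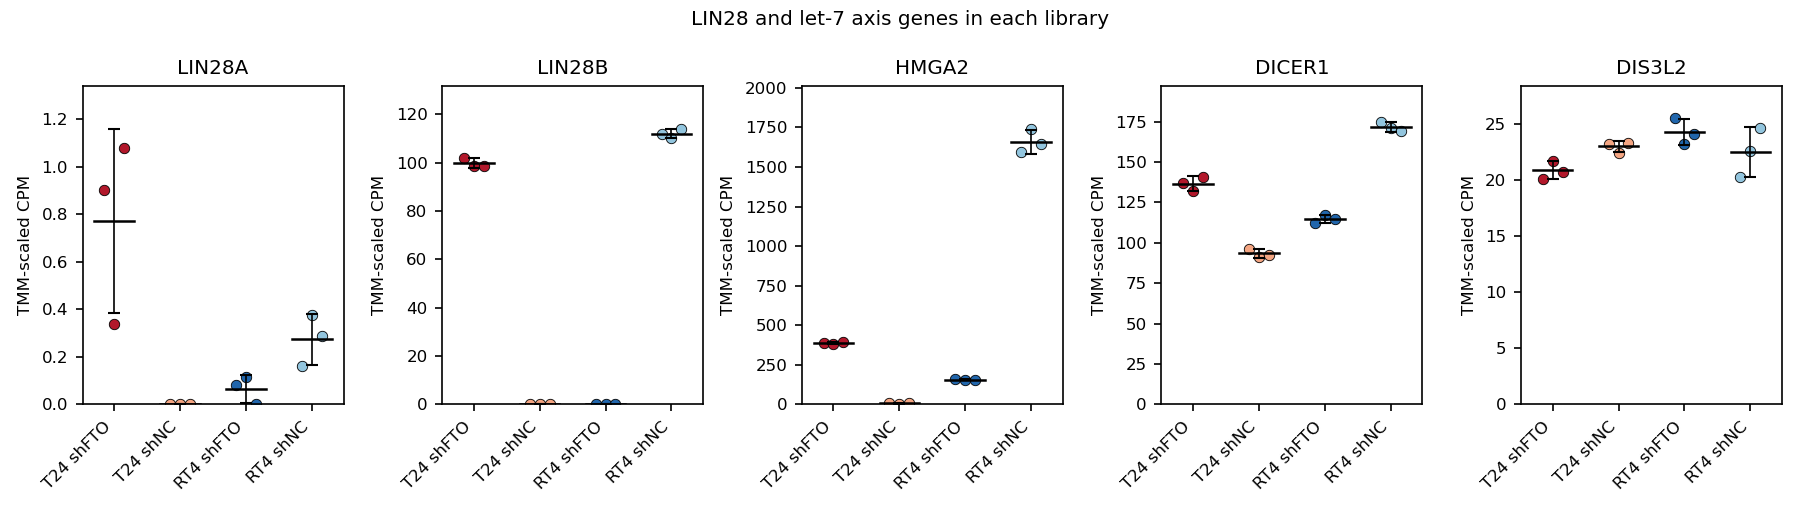
TMM-scaled CPM of the 5 genes (vertical axis, from 0, a scale per gene) in each of 12 libraries, by group. Points are libraries, long bars are group means and error bars are SD (n = 3). LIN28B stands at 99.5 CPM in T24 shFTO and 112 CPM in RT4 shNC and at 0 in the other groups, while DIS3L2 stays between 20.1 and 25.5 CPM.

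The members were also set beside each other per kilobase of the joined exons of all transcripts of a gene (GENCODE 29). That length was 15403 bases for HMGA2 and 12294 for DICER1. The principal transcript of HMGA2 has only 330 coding and 3003 3′ UTR bases, and that of DICER1 has 5769 and 4270. These levels therefore depend on the length used. HMGA2 had the highest level in RT4 shNC at 108 CPM per kilobase, followed by LIN28B at 18.7, DICER1 at 14, DIS3L2 at 1.98 and LIN28A at 0.0683. In T24 shFTO the order was HMGA2 (25.1), LIN28B (16.6), DICER1 (11.1), DIS3L2 (1.84) and LIN28A (0.192 CPM per kilobase). In T24 shNC, DICER1 led at 7.6 CPM per kilobase and HMGA2 stood at 0.317. In RT4 shFTO, HMGA2 (9.99) and DICER1 (9.32 CPM per kilobase) were close on this scale, which says little of their levels per transcript.

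Genes on each side of the members and their antisense partners were read because no source used here states whether counting used strand, and without it reads of overlapping genes cannot be told apart. DICER1-AS1 fell in T24 shFTO (1.70 CPM, against 6.63 CPM in T24 shNC, log2 change -1.96) while DICER1 was higher. In the libraries labelled RT4 shFTO it also fell (1.76 CPM, against 20.3 CPM in RT4 shNC, -3.53). HMGA2-AS1 and RPSAP52, which overlap HMGA2 or its start, were at 1.31 and 0.777 CPM in T24 shFTO and at 0.202 and 0.281 CPM in T24 shNC. HACE1, the neighbour of LIN28B, rose in T24 shFTO (19.8 CPM, against 8.90 CPM in T24 shNC) and fell in the libraries labelled RT4 shFTO (25.2 CPM, against 42.0 CPM in RT4 shNC). POPDC3, on the other side of LIN28B, fell in both lines (log2 change -2.24 in T24 and -3.33 in RT4). LIN28B-AS1 held 0, 0 and 3 counts in the T24 shFTO libraries and 4, 49 and 7 in those labelled RT4 shNC. These are the groups in which LIN28B was counted, and LIN28B-AS1 held 0 in the others. CLMN, the neighbour of DICER1, rose in T24 shFTO (1.08) and fell in the libraries labelled RT4 shFTO (-1.14).

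Of 16131 genes that reached a mean of 1 CPM in some group, those most like each member over the 12 libraries were found by the root mean square difference of centred log2(CPM + 1). ZSCAN18 (0.505), MYEF2 (0.605) and SLC6A15 (0.787) were nearest to LIN28B. Nearest to HMGA2 were PHLDA1 (0.622), SOX9 (0.779) and DLC1 (0.802), and nearest to DICER1 were MFSD8 (0.051), SENP5 (0.054) and CLDN12 (0.055). AAAS (0.069), ACAA2 (0.069) and HEATR6 (0.076) were nearest to DIS3L2. ZSCAN18 stood at 48.7 CPM in T24 shFTO and 0 in T24 shNC, and at 0.132 CPM in the libraries labelled RT4 shFTO, against 128 CPM in those labelled RT4 shNC. Each likeness rests on 12 libraries in 4 groups, and libraries of a group share their cell line and label.

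The other known let-7 targets were read from a list of 38 genes that leaves out the members. In T24, 23 rose in shFTO and 14 fell, with a median log2 change of 0.90, against -0.05 over all tested genes (37.2% called higher and 40.8% lower). In the libraries labelled RT4 shFTO, 12 rose and 24 fell, with a median of -0.54 against -0.00 over all genes (38.6% higher and 40.0% lower). A set of 17 genes, or 44.7% of the list, rose in T24 shFTO and fell in the libraries labelled RT4 shFTO. These are the directions of LIN28B and HMGA2. Over all tested genes the share was 16.4%. It was 21.9% over 13370 genes with a 3′ UTR and a mean of at least 1 CPM, members left out. The opposite pair of directions was found for 6 targets (15.8%, against 17.4% of all genes). The change differed between the lines for 34 targets, 23 higher in T24 and 11 lower (median difference 1.05), against 75.0% of all genes (36.3% higher and 38.7% lower). With a change of at least 2-fold also asked, 24 targets were called in T24 and 23 in RT4, against 48.7% and 48.0% of all genes. The list was chosen with earlier results of these data known, and these counts do not set it apart from other lists.

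The chromatin protein HMGA1, a relative of HMGA2 with 1 seed match in its 3′ UTR, rose in T24 shFTO and fell in the libraries labelled RT4 shFTO. It had 673, 690 and 667 CPM in T24 shFTO and 216, 209 and 205 CPM in T24 shNC (log2 change 1.69, adjusted p = 8.84e-15). In RT4 it had 502, 501 and 490 CPM in the shFTO libraries and 2453, 2902 and 2813 CPM in the shNC libraries (-2.45, adjusted p = 9.92e-17). The groups of neither line overlapped. HMGA1 has processed copies in the genome, and no source used here states how reads with several positions were counted.

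The IGF2 mRNA-binding proteins, oncofetal proteins that stabilise their target messages, followed the same directions. IGF2BP1, with 4 seed matches in its 3′ UTR, had 455, 464 and 448 CPM in T24 shFTO and 65.3, 65.9 and 60.1 CPM in T24 shNC (log2 change 2.84, adjusted p = 2.2e-18). In RT4 it averaged 52.6 CPM in shFTO and 124 CPM in shNC (-1.24, adjusted p = 6.72e-14). IGF2BP2, with 1 match, averaged 154 CPM in T24 shFTO and 6.97 CPM in T24 shNC (4.47), and 74.0 CPM in RT4 shFTO against 152 CPM in RT4 shNC (-1.04). IGF2BP3, also with 1 match, changed least, by 0.79 in T24 and -0.43 in RT4. All 3 differed between the lines, by 4.08 for IGF2BP1 (adjusted p = 1.12e-18), 5.51 for IGF2BP2 (adjusted p = 6.41e-19) and 1.21 for IGF2BP3 (adjusted p = 6.54e-13) on the log2 scale.

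ARID3A, a DNA-binding factor of B cells and embryos, averaged 599 CPM in T24 shFTO and 8.70 CPM in T24 shNC (log2 change 6.10, adjusted p = 4.07e-20). In the libraries labelled RT4 shFTO it averaged 1.69 CPM, against 36.3 CPM in those labelled RT4 shNC (-4.42, adjusted p = 2.65e-17). BCL2L1, which blocks apoptosis, rose by 2.86 in T24 shFTO and fell by 0.34 in the libraries labelled RT4 shFTO. TRIM71, a partner of the axis with 6 matches in its 3′ UTR, had 163 CPM in T24 shFTO and 0.126 CPM in T24 shNC (10.36, adjusted p = 1.66e-18). In RT4 it was near the limit of counting, at 3 counts in all libraries labelled shFTO and 30 in those labelled shNC.

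Not every target followed. THBS1, an anti-angiogenic matrix protein, rose in both lines, to 1222 CPM in T24 shFTO against 8.01 CPM in T24 shNC and to 4868 CPM in RT4 shFTO against 335 CPM in RT4 shNC. MYC, which drives growth, fell in both, to 207 CPM in T24 shFTO against 262 CPM in T24 shNC (log2 change -0.34) and to 33.2 CPM in RT4 shFTO against 108 CPM in RT4 shNC (-1.71). The 3′ UTR searched for MYC (476 bases, from a transcript that is not a principal one) held 0 seed matches. TGFBR1, a TGF-beta receptor, fell in T24 shFTO (-0.93) and rose in the libraries labelled RT4 shFTO (2.62). RRM2, a subunit of ribonucleotide reductase, rose by 0.26 in T24 shFTO and by 2.46 in the libraries labelled RT4 shFTO. COL1A2, a collagen chain and also one of the 9 fibroblast markers above, had 6499 CPM in RT4 shFTO and 0.0195 CPM in RT4 shNC.

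**Figure D2:**
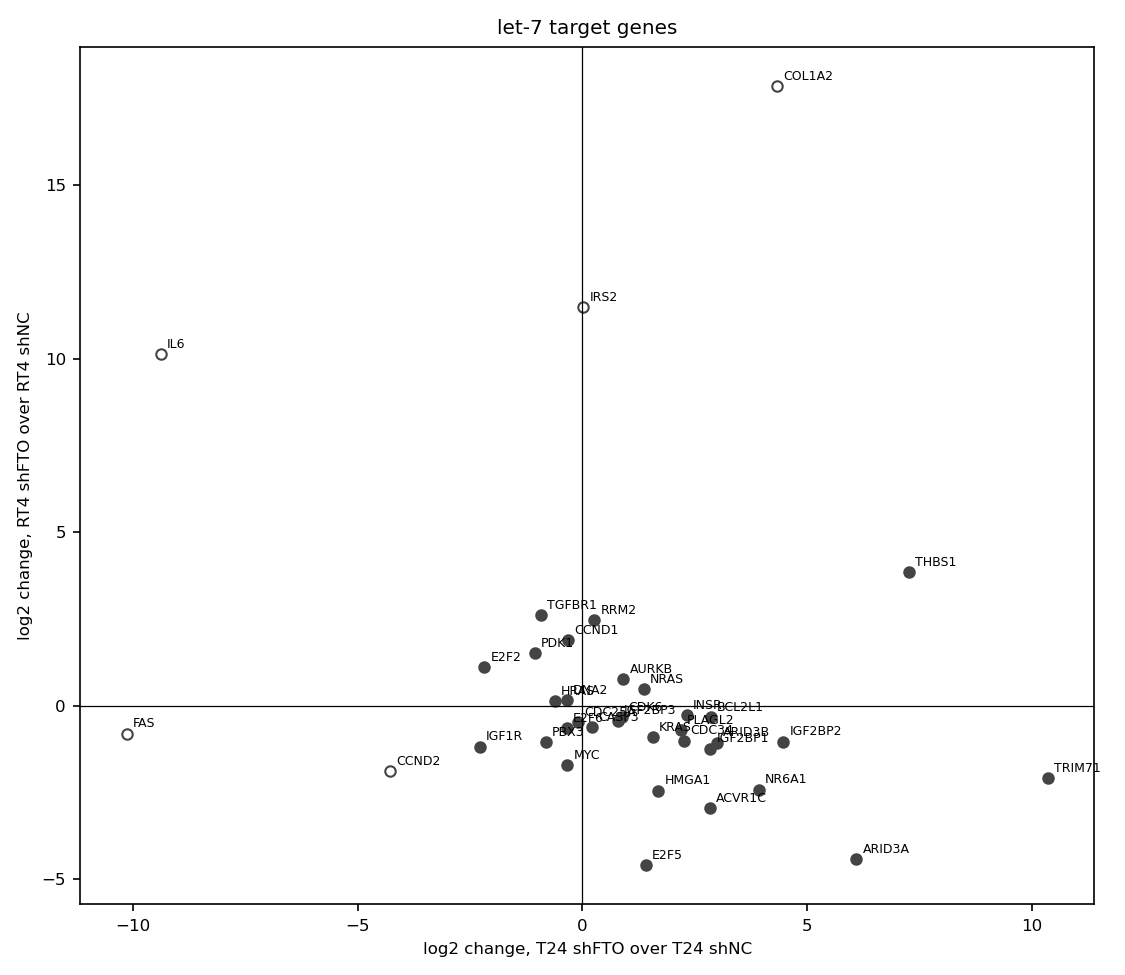
log2 change of let-7 target genes in T24 (horizontal axis, shFTO over shNC) and in RT4 (vertical axis, shFTO over shNC), 1 point per gene. Open circles have at least 1 group at 0 counts and are drawn at a bound, and MYCN, which had 0 counts in both RT4 groups, is left out. The lower right part holds most of the genes that rose in T24 shFTO, ARID3A (6.10 and -4.42) and HMGA1 (1.69 and -2.45) among them, while THBS1 and COL1A2 lie high on the right.

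Of the genes that make let-7 and load it onto Argonaute, 16 in all, 10 rose and 4 fell in T24 shFTO (median log2 change 0.41), against 37.2% higher and 40.8% lower over all tested genes (median -0.05). Among libraries labelled RT4, 7 rose and 8 fell in shFTO (median -0.01), against 38.6% higher and 40.0% lower over all genes (median -0.00). XPO5, the exporter of precursors, rose in T24 shFTO (230 CPM, against 84.5 CPM in T24 shNC, 1.44) and fell in the libraries labelled RT4 shFTO (87.1 CPM, against 112 CPM in RT4 shNC, -0.36). KHSRP, which promotes let-7 processing, rose in T24 shFTO (819 CPM, against 224 CPM in T24 shNC, 1.87). Its change of 0.18 in RT4 did not pass with upper-quartile scaling (0.07) or without the low-count filter (0.08). DROSHA, the nuclear ribonuclease of the pathway, fell in T24 shFTO (-0.55) and rose in the libraries labelled RT4 shFTO (0.81), as did its helper DDX5 (-0.35 and 0.79). DDX17 rose in T24 shFTO (0.66) and fell in the libraries labelled RT4 shFTO (-0.12). TARBP2, a partner of DICER1, had a change of 0.08 in T24 (adjusted p = 0.16) and fell in the libraries labelled RT4 shFTO (22.3 CPM, against 62.4 CPM in RT4 shNC, -1.49). PRKRA, the other partner, rose in T24 shFTO (1.02), and its RT4 change of 0.13 did not pass with upper-quartile scaling (0.02), without the low-count filter (0.04) or without RT4 shNC replicate 1 (0.08). AGO4 fell in both lines, by 0.96 in T24 and 0.73 in RT4.

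Of the partners of LIN28 and the enzymes of RNA decay, 14 genes, 7 rose and 5 fell in T24 shFTO (median log2 change 0.07), beside 37.2% and 40.8% of all genes. Between the RT4 labels, 6 rose and 5 fell in shFTO (median -0.03), beside 38.6% and 40.0% of all genes. TUT4, the uridylyltransferase that LIN28 recruits, fell in T24 shFTO (68.0 CPM, against 79.4 CPM in T24 shNC, -0.22) and fell in the libraries labelled RT4 shFTO (41.8 CPM, against 118 CPM in RT4 shNC, -1.49). Its relative TUT7 changed by -0.18 in T24, a call lost without the low-count filter (-0.14), and rose by 0.50 in the libraries labelled RT4 shFTO. MSI1, an RNA-binding protein of stem cells known to act with LIN28, had 35.2 CPM in T24 shFTO and 0 counts in T24 shNC, at least 1353-fold higher. In RT4 it was near the limit of counting, at 0 counts in the libraries labelled shFTO and 32 over those labelled shNC. XRN2, an exonuclease linked to microRNA turnover in worms, rose in both lines (0.97 in T24 and 0.31 in RT4). HNRNPA1, known to bind let-7 precursors, had 943 CPM in T24 shFTO and 944 CPM in T24 shNC. It fell in the libraries labelled RT4 shFTO (652 CPM, against 1644 CPM in RT4 shNC, -1.33), with the same limit from processed copies as HMGA1. EXOSC10, an exosome nuclease, rose by 0.73 in the libraries labelled RT4 shFTO, and its T24 change of 0.14 did not pass with upper-quartile scaling (0.03). SYNCRIP, an RNA-binding protein, rose in T24 shFTO (0.61) and had a change of -0.03 in RT4, which passed with upper-quartile scaling (-0.13) and without the low-count filter (-0.12).

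**Figure D3:**
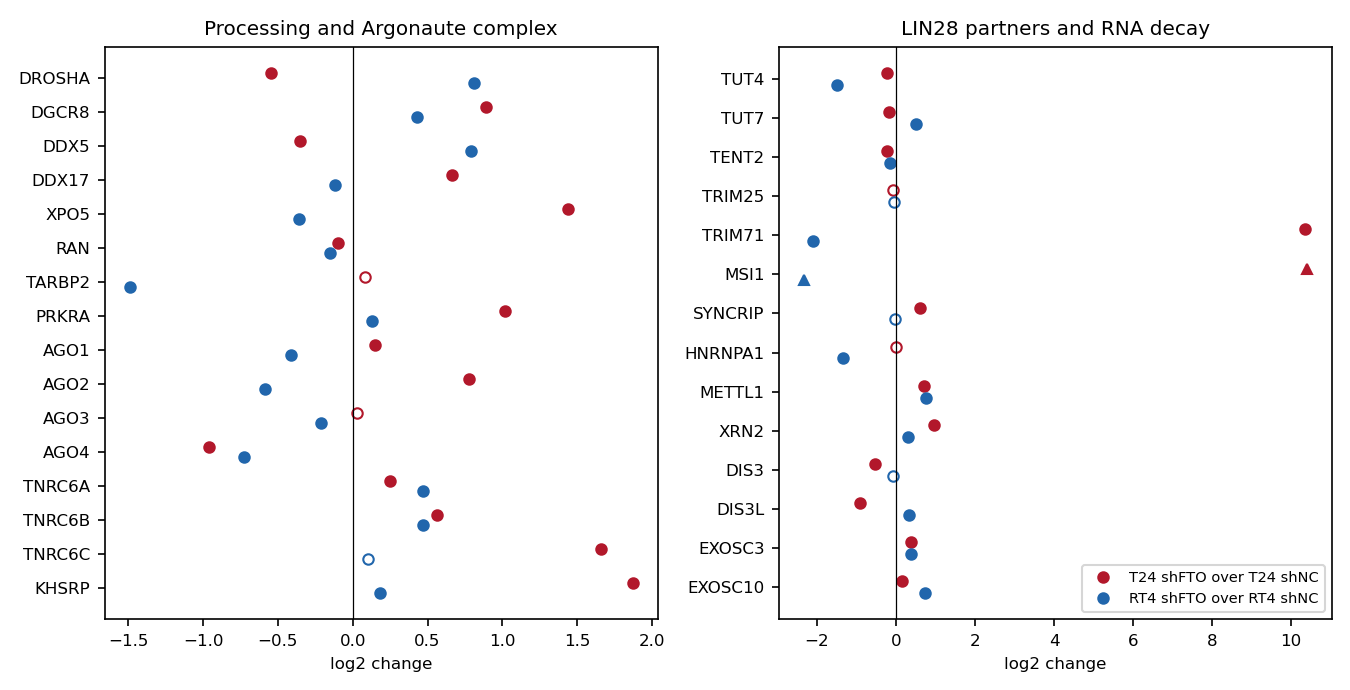
log2 change (horizontal axis, shFTO over shNC) of 16 processing and Argonaute-complex genes (left) and 14 LIN28 partners and decay genes (right), in T24 (red) and RT4 (blue). Filled symbols passed the test, open circles did not, and triangles are bounds for MSI1. All 16 processing genes lie within 2 log2 units of 0, with KHSRP at 1.87 in T24 and TARBP2 at -1.49 in RT4 at opposite ends.

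Let-7 genes can be seen in these libraries through transcripts that span their hairpins and through sparse hairpin rows, and 7 of 8 transcripts on the list were in the table. SPACA6, whose row spans let-7e, was not on the list. In T24 shFTO 2 rose and 4 fell (median log2 change -0.56), beside 37.2% higher and 40.8% lower over all genes. Libraries labelled RT4 shFTO had 3 that rose and 2 that fell (median 0.23), beside 38.6% higher and 40.0% lower. MIR100HG, which holds the let-7a-2 hairpin printed above, fell in both lines. It had 0.313, 0.549 and 0.307 CPM in T24 shFTO and 13.7, 14.2 and 12.7 CPM in T24 shNC (-5.16, adjusted p = 3.88e-16). It averaged 20.3 CPM in the libraries labelled RT4 shFTO, against 71.9 CPM in those labelled RT4 shNC (-1.83, adjusted p = 6.73e-14). The row of the let-7a-2 hairpin held 0 counts in T24 shFTO and in T24 shNC, 2, 2 and 1 counts in RT4 shFTO, and 12, 22 and 23 counts in RT4 shNC.

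MIRLET7BHG, which holds let-7a-3 and let-7b, fell in T24 shFTO (0.729 CPM, against 7.04 CPM in T24 shNC, -3.30, adjusted p = 9.21e-09). Its change in RT4 was -0.44 (adjusted p = 0.0943), and it passed with upper-quartile scaling, DESeq2, limma-voom, the lines fitted alone and without either of 2 T24 shFTO libraries. MIR99AHG, which holds let-7c, rose in T24 shFTO (8.64 CPM, against 5.80 CPM in T24 shNC, 0.57). In the libraries labelled RT4 shFTO it rose to 3.19 CPM, against 0.0505 CPM in RT4 shNC (6.05). MIRLET7IHG, which holds let-7i, rose in T24 shFTO (0.49) and in the libraries labelled RT4 shFTO (15.1 CPM, against 5.72 CPM in RT4 shNC, 1.40). MIRLET7A1HG fell in T24 shFTO (-0.56) and had a change of 0.23 in RT4 (adjusted p = 0.106), which passed with DESeq2 (0.26, adjusted p = 0.0402). The ubiquitin ligase gene HUWE1, whose introns hold let-7f-2 and miR-98, fell in T24 shFTO (-1.10) and rose in the libraries labelled RT4 shFTO (0.25). WDR82, the row that spans let-7g, had a change of 0.07 in T24 (adjusted p = 0.076) and fell in the libraries labelled RT4 shFTO (-0.67). A host transcript need not track the mature RNA.

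**Figure D4:**
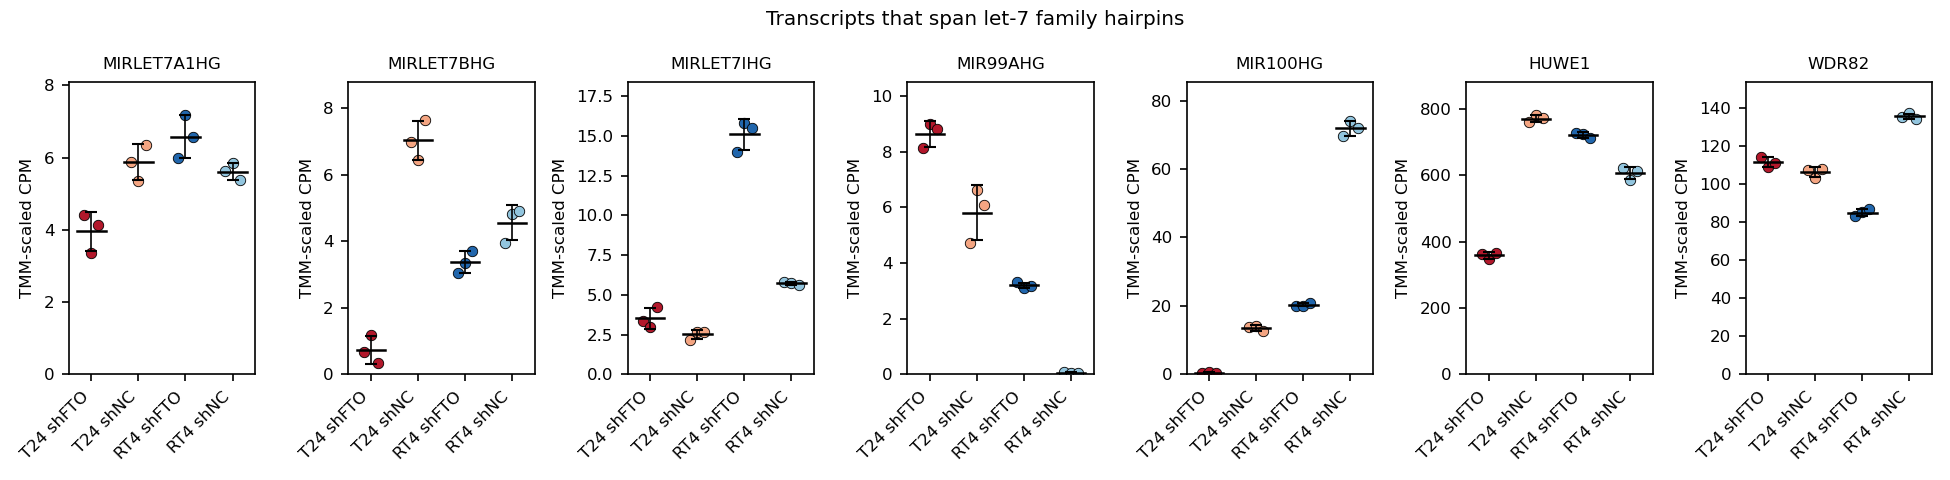
TMM-scaled CPM (vertical axis, from 0, a scale per gene) of 7 listed transcripts that span let-7 family hairpins, in each of 12 libraries by group. Points are libraries, long bars are means and error bars are SD (n = 3). MIR100HG is lower in shFTO than in shNC in both lines (0.390 against 13.5 CPM in T24 and 20.3 against 71.9 CPM in RT4).

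Of 10 genes known to act upstream of LIN28 or beside it in pluripotent cells, 6 were tested, MYC (described above) among them. In T24 shFTO 3 rose and 3 fell, beside 37.2% and 40.8% of all genes. Between the RT4 labels, 1 rose and 2 fell in shFTO, beside 38.6% and 40.0%. SOX2 had 2.13 CPM in T24 shFTO and 0 counts in T24 shNC (at least 82.1-fold higher), and TDGF1, a co-receptor, 3.28 CPM and 0 counts (at least 126-fold higher). In RT4, SOX2 held 2 counts over the libraries labelled shFTO and 106 over those labelled shNC, under 1 CPM in both. TDGF1 held 0 counts in both RT4 groups. POU5F1 fell in T24 shFTO (0.540 CPM, against 2.26 CPM in T24 shNC) and rose in the libraries labelled RT4 shFTO (2.09 CPM, against 0.121 CPM in RT4 shNC). Reads of POU5F1 can come from processed copies. MYCN, which is known to raise LIN28B, had 7.51 CPM in T24 shFTO and 1.72 CPM in T24 shNC (2.13) and 0 counts in both RT4 groups. Its part in the level of LIN28B was not tested. SALL4 averaged 21.5 CPM in T24 shFTO and 33.0 CPM in T24 shNC (-0.62), and under 1 CPM in both RT4 groups.

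Seed matches were set beside the changes of every gene that reached a mean of 1 CPM, with the members left out. The 27 genes with at least 3 matches in the 3′ UTR had a median log2 change of 0.80 in T24 and -0.22 in RT4. For the 12039 genes with no match the medians were 0.05 and 0.00, and for the 1179 genes with 1 match they were 0.18 and -0.04. The share that rose in T24 shFTO and fell in the libraries labelled RT4 shFTO was 33.3%, against 21.5% with no match. Genes with more matches had longer 3′ UTRs, with a median of 6015 bases for at least 3 matches and 999 bases for none. Within 3′ UTRs of 2000 to 5000 bases, 474 genes with 1 match had medians of 0.27 in T24 and -0.03 in RT4, against 0.18 and 0.01 for 2703 genes with none. The 44 genes with 2 matches in that range had medians of 0.16 in T24 and 0.15 in RT4, and 15.9% of them rose in T24 shFTO and fell in the libraries labelled RT4 shFTO, against 23.9% with none. The 6 genes with at least 3 matches in that range had medians of 2.36 in T24 and -1.35 in RT4. Of them, 66.7% rose in T24 shFTO and fell in the libraries labelled RT4 shFTO, but 6 genes are too few to read. Within that range the values did not move steadily from 0 to 2 matches. Over all lengths, 24.9% of genes with 1 match rose in T24 shFTO and fell in RT4 shFTO, and 28.8% of the 125 with 2. This share rose with the number of matches, as did the median 3′ UTR length (2589 bases for 1 match, 4708 for 2). Medians of those 125 genes were 0.16 in T24 and -0.17 in RT4. These are descriptions over genes, which are not independent replicates.

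**Figure D5:**
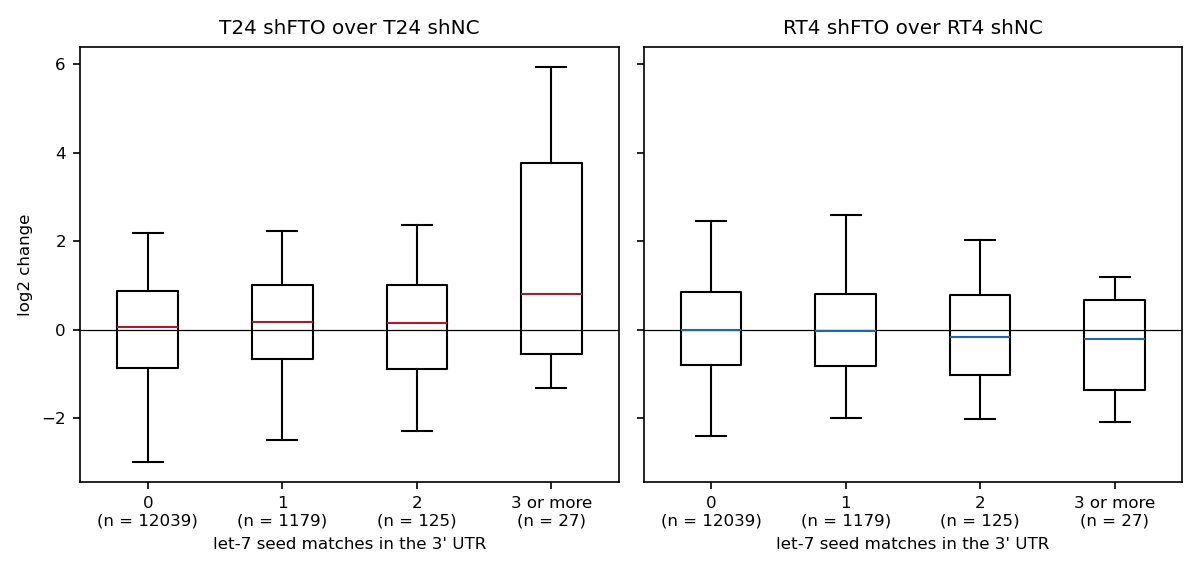
log2 change (vertical axis, shFTO over shNC) of genes with 0, 1, 2 or at least 3 let-7 seed matches in the 3′ UTR (horizontal axis), in T24 (left) and RT4 (right). Boxes span the quartiles, the coloured line is the median and whiskers reach percentiles 10 and 90. The 27 genes with at least 3 matches have medians of 0.80 in T24 and -0.22 in RT4 and a wide spread.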

How the data were processed

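Groups follow the labels, and the members, lists and rules were chosen with earlier results of these data known. The authors deposited a table of read counts per gene. Per the submitters' processing notes, fastp 0.20.0, STAR 2.7.9a and featureCounts 2.0 were used, and the builds mm39, GRCh38 and hg38 are named without a role. Strand setting and annotation release: not given in the sources used here. Total counts per library were 31291047 to 102798895.

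After TMM scaling, 23070 genes passed filterByExpr (by group). They were fitted in edgeR 4.0.16 by robust quasi-likelihood (R 4.3.3, 4 groups, 12 libraries, common biological coefficient of variation 0.0768, 8 residual degrees of freedom). The contrasts were each line's change and their difference, with Benjamini-Hochberg adjustment and calls under 0.05. Log2 changes are fitted values with a prior count of 0.125. A group at 0 counts was set to 3 counts over the group, and such folds are bounds that cover counting error only. Members carry no p. The fit was tested on simulated data.

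Named genes were the members, FTO, the 4 genes of each list with the smallest p in each line, 5 preset targets (HMGA1, MYC and 3 IGF2BP genes) and all host transcripts. Neighbours, antisense partners and the 3 genes most like each member were also named. ZSCAN18's levels were given because it was nearest to LIN28B.

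As a check of pairing, deviations from group means of 10876 genes gave r of 0.120, -0.034 and 0.011 in T24 and -0.131, -0.039 and -0.034 in RT4 for same-numbered libraries. The labels call the number a batch, so a fit with it as a block was run. No block was used in the values reported. Replicates differed by more than sampling noise (chi-squared per degree of freedom 5.47 to 16.3).

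Alternatives were scaling by RLE or by upper quartile, DESeq2 1.42.0, voom (limma 3.58.1), leaving out the low-count filter or asking for 1 CPM in 3 libraries, each line alone, the block, leaving out each library and a 2-fold threshold. Sequences and hairpin positions came from RefSeq (GRCh38.p14), and transcripts from GENCODE 29.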

Additional observations from a re-analysis of the deposited data

Results flagged for a closer look

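By edgeR's test of T24 minus RT4, the log2 change between the shFTO and shNC labels differed for 17298 of 23070 genes (75.0%). FTO was among them (-1.04, adjusted p = 2.75e-10), being lower in T24 shFTO than in T24 shNC and higher in the libraries labelled RT4 shFTO than in those labelled RT4 shNC. Each value that follows is such a difference and passed that test.

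Among let-7 targets the differences were 10.52 for ARID3A, 3.21 for BCL2L1, 4.14 for HMGA1, 4.08 for IGF2BP1, 5.51 for IGF2BP2, 1.21 for IGF2BP3, 1.36 for MYC, -2.21 for RRM2, -3.54 for TGFBR1 and 3.39 for THBS1. POU5F1 differed by -6.03. Among processing genes they were 1.80 for XPO5, 1.69 for KHSRP, 1.56 for TARBP2, 0.88 for PRKRA, 0.77 for DDX17, -0.22 for AGO4, -1.15 for DDX5 and -1.36 for DROSHA.

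Among LIN28 partners and decay genes they were 1.27 for TUT4, 1.33 for HNRNPA1, 0.67 for XRN2, 0.64 for SYNCRIP, -0.59 for EXOSC10 and -0.68 for TUT7. Host transcripts differed by 0.74 for WDR82, -0.79 for MIRLET7A1HG, -0.91 for MIRLET7IHG, -1.35 for HUWE1, -2.87 for MIRLET7BHG, -3.33 for MIR100HG and -5.48 for MIR99AHG.

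In 4 members every shFTO library stood on one side of the shNC libraries in T24 and on the other side in RT4, as in 34.5% of all tested genes. The differences of the log2 changes were 9.74 for HMGA2 and 1.13 for DICER1, and at their bounds 7.04 for LIN28A and 23.92 for LIN28B. These differences were not tested.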

How the results depend on the processing

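LIN28A, LIN28B, HMGA2 and DICER1 kept their direction in both lines under the alternatives that gave a value, as did DIS3L2 in T24. With a 2-fold threshold 11242 genes were called in T24 and 11073 in RT4, with 24 and 23 of the let-7 targets and 6 and 5 of the 30 processing and decay genes. Then 14 targets were lower in RT4 shFTO, and 10 were higher in T24 shFTO and lower in RT4 shFTO. The shares of all genes in these directions at this threshold were not computed, so nothing is read from these counts. On the log2 scale the LIN28B bound was 11.90 in T24 (11.80 with upper-quartile scaling, 11.94 without the low-count filter, 11.87 with the 1 CPM filter). In RT4 it was -12.02 (-11.99 with RLE and with DESeq2, -12.13 with upper-quartile scaling, -12.11 without the filter). HMGA2 in RT4 was -3.54 with upper-quartile scaling and -3.52 without the filter. DICER1 was 0.44 in T24 and -0.69 in RT4 with upper-quartile scaling, and in RT4 -0.67 without the filter and -0.55 with RLE and with DESeq2. DIS3L2 in T24 was -0.25 with upper-quartile scaling, which shifted the all-gene median (-0.106 in T24, -0.107 in RT4). DIS3L2 in RT4 (0.11) was -0.00 with upper-quartile scaling and 0.01 without the filter. The other causes were not tested.

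Leaving out 1 library gave -2.79 to -1.56 for LIN28A in RT4 (lowest without RT4 shFTO replicate 2), 11.17 to 11.92 for LIN28B in T24 and -12.03 to -11.41 in RT4, where fewer libraries at 0 raise the limit, and 0.03 (without RT4 shNC replicate 1) to 0.17 for DIS3L2 in RT4. With the replicate block 17443 genes were called in T24, 17492 in RT4 and 16640 for the difference, with 36 targets in each line, and it ended no call named here. Of 1595 checks on 40 named genes, 10 lost the call, 14 gained it and 0 called values changed direction (HNRNPA1 in T24, not called, ran from -0.08 to 0.05 when 1 library was left out). TRIM71 in RT4 lost its call without RT4 shFTO replicate 1 (-1.54) or 3 (-1.52) or RT4 shNC replicate 3 (-1.77). Calls were gained by HNRNPA1 in T24 without T24 shFTO replicate 1 (-0.08), by TARBP2 (0.13) and WDR82 (0.09) in T24 without T24 shNC replicate 3, and by SALL4 in RT4 without RT4 shFTO replicate 3 (-5.86) and with limma-voom (-2.04), and by MIRLET7A1HG in RT4 with DESeq2 (0.26). LIN28A had no value with the 1 CPM filter. Depth limits LIN28A and the hairpin rows, which held few counts.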
